A study of Mus musculus with 7 samples.

Results

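Cardiac macrophages were followed here through 10 genes, chosen by symbol for the cells they mark, out of 20927 genes in the count table. Csf1r, Adgre1, Cd68 and Lyz2 mark macrophages in general, Cd163, Lyve1, Mrc1 and Folr2 mark resident cardiac macrophages, and Ly6c2 and Plac8 mark cells that recently came from blood monocytes. Chemokine receptors were left out. All 10 genes passed the filter on low counts and were among the 13894 genes tested. They lie on 9 chromosomes, with Lyve1 and Folr2 both on chromosome 7.

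RNA sequencing had been carried out on left ventricular (LV) tissue of 3 WT mice (replicates 1, 3 and 4) and of 4 mice homozygous for the titin variant A178D (replicates 1, 2, 3 and 4), to compare the transcriptome of both genotypes. A178D is a missense change in titin, the giant protein that spans from the Z-disc to the middle of the sarcomere, and the homozygous mice are a model of mild dilated cardiomyopathy. The variant was introduced by CRISPR-Cas9 in embryonic stem cells of the C57BL/6N strain, and the line was backcrossed to C57BL/6J before WT and A178D littermates were bred. The labels give C57BL/6J as the strain of all 7 mice. Every cell of an A178D mouse carries the variant, so the model is not restricted to cardiomyocytes. The age and sex of the sequenced mice are not given in the sources used here, but the Y-linked gene Ddx3y had between 2436 and 5739 counts in each of the 7 hearts. The replicates carry only a number in the labels, and p-values therefore measure the spread between these samples. Library totals lay between 33080675 counts (A178D replicate 4) and 54245530 counts (WT replicate 3).

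Before the comparison, WT replicate 3 stood apart at a gene that was picked after its values were seen. Mmrn1, which encodes multimerin 1 and was listed as a marker of lymphatic endothelium, had 2 counts in this library and between 164 and 374 in the other hearts. Of the 155 genes listed for the 10 genes and their context, it was the only gene with at most 3 counts in a single library and at least 40 in all others. The study describes its WT and homozygous mice as littermates, and the labels do not state it mouse by mouse. The cause was not tested, and values of the 10 genes without WT replicate 3 are given below beside the results. Over all tested genes, A178D replicate 4 and WT replicate 1 lay apart. In a principal component analysis of log2 CPM, A178D replicate 4 was at 30.5 on the first component (4.11 to 13.9 in the other A178D hearts, -22.9 to -11.5 in WT) and at 26.1 on the second (-20.8 to -11.2 in the other A178D hearts, 0.68 to 11.8 in WT). WT replicate 1 was at -26.5 on the third component, against -8.66 to 15.1 in all other hearts. A178D replicate 4 was also the lowest heart for the titin transcript Ttn, named after its values were seen, at 4087 CPM against 5360 to 7245 CPM in the others. Without A178D replicate 4, edgeR called 154 genes higher and 215 lower, and without WT replicate 1 it called 215 higher and 238 lower.

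Macrophages live in the myocardium between the cardiomyocytes. Resident cardiac macrophages are seeded largely before birth, renew themselves locally, and carry scavenger and uptake receptors such as CD163, LYVE1, the mannose receptor and folate receptor beta. After injury, monocytes with high Ly6C enter the heart from blood and mature into macrophages there. Survival of macrophages depends on signals through the CSF1 receptor, whose ligands are CSF1 and IL-34.

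Levels of different genes were compared as counts-per-million (CPM) per kilobase of exon, over all 7 hearts. Lyz2 was the most abundant at 115 CPM per kb, and its lowest heart (82.9) was above the highest heart of Csf1r (12.0), the next gene. Csf1r (10.9 CPM per kb), Folr2 (8.69), Cd68 (8.09), Mrc1 (6.14), Lyve1 (6.12), Adgre1 (4.84) and Cd163 (3.65) followed, each of them overlapping its neighbour in this order. Both monocyte genes were far lower, with 0.402 CPM per kb for Plac8 and 0.0795 CPM per kb for Ly6c2, and neither overlapped the gene above it. The separation of Ly6c2 from Plac8 depended on the length used. Over the longest coding transcript, a choice made after seeing the data, Ly6c2 (822 bases in place of 2740) was at 0.265 CPM per kb and Plac8 at 0.523, and the hearts of both genes overlapped. The hearts thus held transcripts of all general and resident markers, with little RNA from the markers of recent monocytes. Together the 10 genes took up between 0.0268% (WT replicate 1) and 0.0366% (A178D replicate 2) of all counts of a library.

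Genotype differences were fitted across all tested genes with edgeR's quasi-likelihood test, and a gene was called when its Benjamini-Hochberg adjusted p was under 0.05. Lyz2 was the only called gene of the 10, and it rose in A178D hearts. Thus 1 of 10 was called higher, against 145 of the 13894 genes tested (1.04%), and 0 of 10 were called lower, against 182 genes (1.31%). At an unadjusted p under 0.05, 2 of 10 were higher (7.93% of all tested genes) and 2 of 10 were lower (8.81%). All hearts of one genotype lay above all of the other for 2 of 10 genes with A178D higher (7.61% of all tested genes) and for 0 of 10 with A178D lower (8.52%). Without WT replicate 3, 0 of 10 were called, and the calls across all genes dropped to 22 higher and 31 lower. The median log2 fold change was 0.19 over the 10 genes and 0.00 over all genes tested. When single libraries were left out, the median of the 10 lay between 0.06 (without WT replicate 1) and 0.33 (without WT replicate 3). In bulk tissue, a change in the number of macrophages and a change in RNA per macrophage cannot be told apart.

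**Figure D1:**
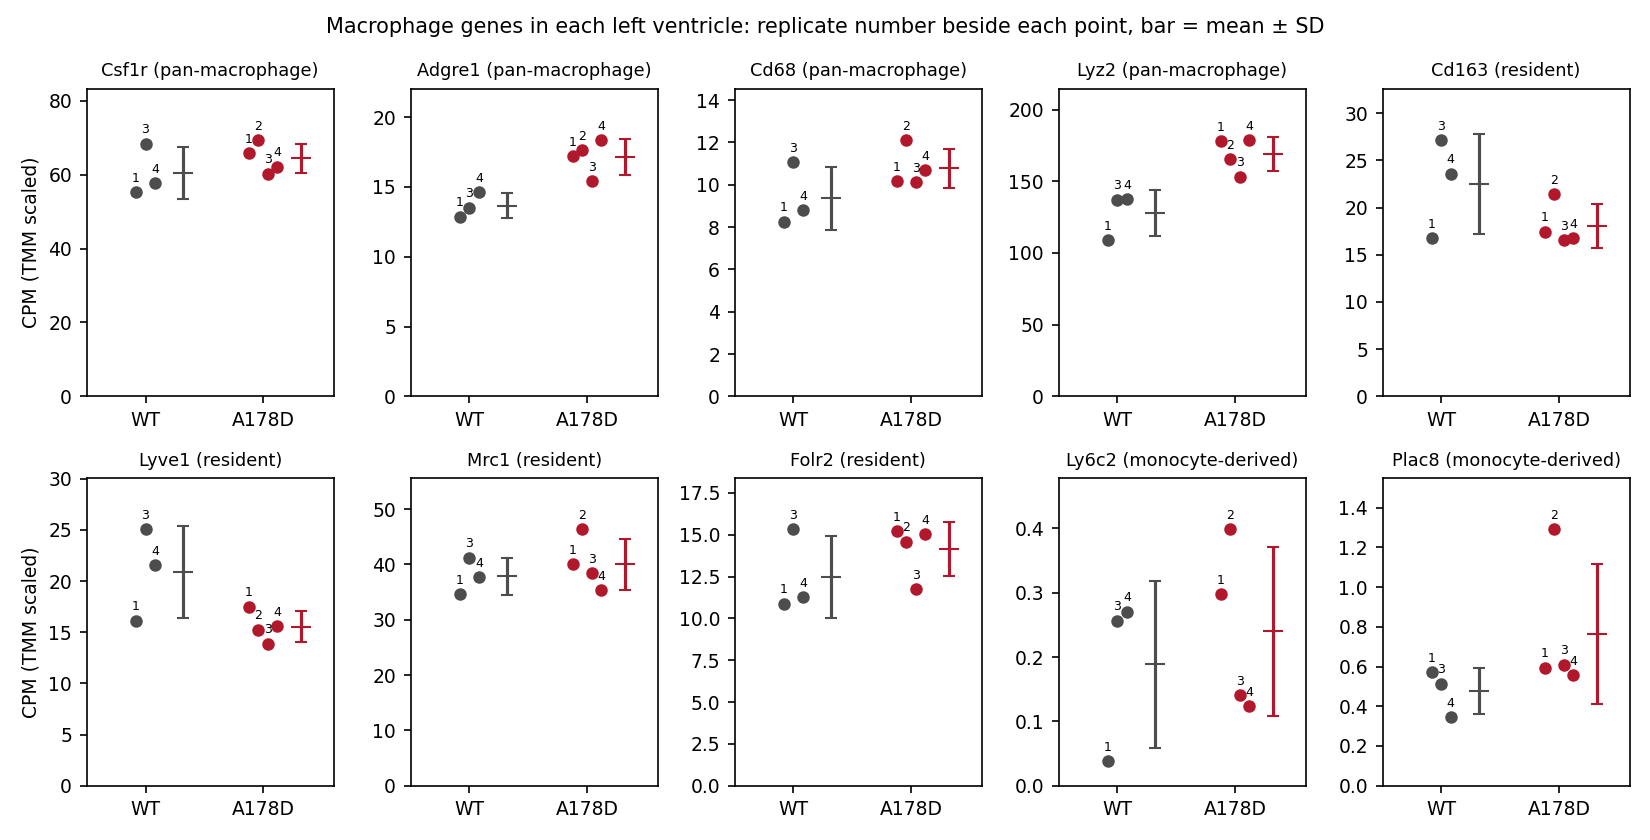
Level of each of the 10 genes in every left ventricle, in counts-per-million scaled by TMM factors (vertical axes start at 0), for WT (grey, n = 3) and A178D (red, n = 4). Numbers beside points are replicates, and the bars give the mean and SD of each genotype. Adgre1 and Lyz2 are the only genes whose genotypes do not overlap.

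Lyz2 encodes lysozyme M, an enzyme that cleaves bacterial cell walls and is made by macrophages, monocytes and neutrophils. Its level was 109, 137 and 137 CPM in WT replicates 1, 3 and 4, and 177.8, 165, 153 and 179 CPM in A178D replicates 1 to 4. WT replicate 1 was the lowest heart and every A178D heart was above every WT heart. The log2 fold change was 0.40 ± 0.090 (SE), or 1.32-fold with a 95% confidence interval from 1.15 to 1.51, at an edgeR adjusted p of 0.0339. The estimate stayed above 0 when any single library was left out (0.30 to 0.46), but the call held in only 2 of these 7 fits. It was lost without WT replicate 1 (edgeR adjusted p = 0.0706), WT replicate 3 (0.0915), WT replicate 4 (0.0787), A178D replicate 1 (0.117) and A178D replicate 2 (0.0621). Among the 145 genes called higher, Lyz2 ranked 111 by the size of its rise.

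Lyz2 has a near copy beside it, Lyz1, the lysozyme of Paneth cells in the gut. The transcripts share 72 of the 1241 windows of 76 bases (the read length) along the Lyz2 transcript, or 5.80%, and reads from these windows could be assigned to either gene. Lyz1 was counted at 0.689 to 1.62 CPM, against at least 109 CPM for Lyz2. Its own log2 fold change was 0.69 ± 0.30 (SE), in the same direction as that of Lyz2, at an edgeR adjusted p of 0.263, and the genotypes overlapped. To show how alike they are, the first 76 coding bases of both genes are printed from GENCODE M21 on GRCm38, 5′ to 3′ in the sense of the minus strand, on which both lie (Lyz2 at chr10:117277331-117282321, Lyz1 at chr10:117287797-117292868). Capitals mark the 5 positions at which they differ.
Lyz2: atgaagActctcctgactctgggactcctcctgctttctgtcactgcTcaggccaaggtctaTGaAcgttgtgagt
Lyz1: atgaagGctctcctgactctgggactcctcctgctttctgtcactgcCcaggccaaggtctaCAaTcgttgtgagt
Over the whole coding sequence, 422 of 444 positions were equal.

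Adgre1 encodes F4/80, the surface receptor by which mouse macrophages are commonly stained. It measured 12.9, 13.5 and 14.6 CPM in WT replicates 1, 3 and 4, and 17.2, 17.6, 15.4 and 18.3 CPM in A178D replicates 1 to 4. All A178D hearts were above all WT hearts, with A178D replicate 3 closest to WT. The log2 fold change of 0.33 ± 0.098 (SE) had an unadjusted p of 0.0050 and did not pass the threshold across all genes (edgeR adjusted p = 0.107, and 0.284 without WT replicate 3).

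Csf1r, the receptor for CSF1 and IL-34, was at 55.2, 68.3 and 57.7 CPM in WT replicates 1, 3 and 4, and at 65.9, 69.3, 60.2 and 62.1 CPM in A178D replicates 1 to 4. WT replicate 3 was as high as the highest A178D hearts, and the genotypes overlapped. Its log2 fold change was 0.09 ± 0.086 (SE), with a 95% confidence interval from -0.09 to 0.28 (edgeR adjusted p = 0.638). Cd68, a glycoprotein of lysosomes, was at 8.26, 11.1 and 8.79 CPM in WT replicates 1, 3 and 4, and at 10.2, 12.1, 10.1 and 10.7 CPM in A178D replicates 1 to 4. WT replicate 3 was again the WT heart that reached into the range of A178D. The log2 fold change of Cd68 was 0.20 ± 0.13 (SE), at an edgeR adjusted p of 0.458. When single libraries were left out, the log2 fold change of Csf1r lay between 0.03 (without WT replicate 1) and 0.19 (without WT replicate 3), and was 0.06 without WT replicate 4 or without A178D replicate 2. That of Cd68 lay between 0.12 (without WT replicate 1) and 0.34 (without WT replicate 3). Neither was called in any of these fits.

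**Figure D2:**
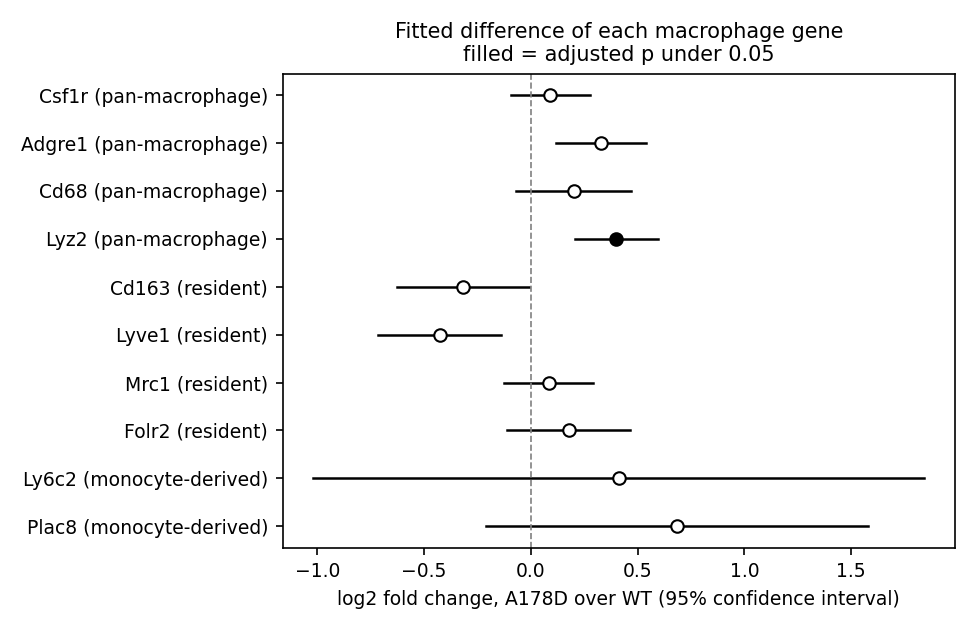
Fitted log2 fold change (A178D over WT) of each of the 10 genes, with its 95% confidence interval on the horizontal axis. The filled point marks the only gene with an edgeR adjusted p under 0.05, Lyz2 at 0.40, and the intervals of Ly6c2 and Plac8 are the widest.

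The 4 resident genes did not move together. Lyve1 and Cd163 had lower fitted values in A178D, Mrc1 and Folr2 had slightly higher ones, and none of the 4 passed the threshold in either direction. Their median log2 fold change was -0.12, compared with 0.26 for the 4 general genes and 0.00 for all genes tested. The resident median was -0.23 without WT replicate 1 and 0.00 without WT replicate 3.

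Lyve1 encodes a receptor for hyaluronan that is found on a subset of resident macrophages and on lymphatic endothelium. It was at 16.2, 25.0 and 21.6 CPM in WT replicates 1, 3 and 4, and at 17.5, 15.3, 13.9 and 15.6 CPM in A178D replicates 1 to 4. WT replicates 3 and 4 were above all A178D hearts, whereas WT replicate 1 lay within their range. The log2 fold change was -0.43 ± 0.13 (SE), at an unadjusted p of 0.00643 and an edgeR adjusted p of 0.12. This depended on single WT hearts, with -0.58 (edgeR adjusted p = 0.0123, which passes the threshold) without WT replicate 1 and -0.28 (edgeR adjusted p = 0.432) without WT replicate 3.

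Because Lyve1 is shared with lymphatic vessels, markers of lymphatic endothelium were examined beside it. Of 5 such genes, 0 were called higher in A178D (1.04% of all tested genes) and 1 was called lower (1.31%), namely Reln, the extracellular matrix protein reelin, with a log2 fold change of -0.72 ± 0.16 (SE) and an edgeR adjusted p of 0.0330. Reln was at 12.0, 12.3 and 12.8 CPM in WT replicates 1, 3 and 4, and at 5.55, 8.92, 9.25 and 6.18 CPM in A178D replicates 1 to 4, without overlap. Its call was lost without WT replicate 3 (edgeR adjusted p = 0.136), WT replicate 4 (0.128), A178D replicate 1 (0.0884) or A178D replicate 4 (0.0545). Flt4, the receptor VEGFR3, also lay lower in every A178D heart (log2 fold change -0.25 ± 0.080 (SE), edgeR adjusted p = 0.130). The 5 genes, of which Prox1 was the most abundant per length and none was at 0 in all hearts, summed to 110, 95.3 and 104 CPM in WT replicates 1, 3 and 4, and to 93.1, 102, 94.1 and 74.2 CPM in A178D replicates 1 to 4. Prox1 was the largest part of each sum, at 54.5, 44.3 and 46.5 CPM in the WT hearts and 53.7, 54.0, 46.8 and 30.7 CPM in the A178D hearts. Whether its RNA came from lymphatic vessels alone was not tested, so the sums are no measure of these vessels. The sums of the 5 genes overlapped between genotypes and their median log2 fold change was -0.06, but -0.24 without WT replicate 3 and -0.14 without A178D replicate 1 or A178D replicate 2. Mmrn1 contributed to this, with a log2 fold change of 0.11 ± 0.66 (SE) in all hearts (2.13 in limma-voom and 0.61 with the replicate block, neither called) and -0.48 (edgeR adjusted p = 0.32) without WT replicate 3. Apart from that library, WT hearts had 7.12 and 6.57 CPM of Mmrn1 and A178D hearts 3.94 to 5.84 CPM. The part of lymphatic endothelium in the Lyve1 values was not tested.

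Cd163 encodes the scavenger receptor for complexes of haemoglobin and haptoglobin. It was at 16.8, 27.1 and 23.6 CPM in WT replicates 1, 3 and 4, and at 17.5, 21.4, 16.5 and 16.7 CPM in A178D replicates 1 to 4. As with Lyve1, WT replicates 3 and 4 were the highest hearts and WT replicate 1 sat among the A178D hearts. The log2 fold change was -0.32 ± 0.14 (SE), at an unadjusted p of 0.0460 and an edgeR adjusted p of 0.288. It was -0.49 without WT replicate 1 (edgeR adjusted p = 0.0410, which passes the threshold) and -0.16 without WT replicate 3 (edgeR adjusted p = 0.698).

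Mrc1 encodes the mannose receptor CD206, which takes up glycoproteins. It was at 34.6, 41.2 and 37.7 CPM in WT replicates 1, 3 and 4, and at 40.1, 46.3, 38.4 and 35.4 CPM in A178D replicates 1 to 4, and the genotypes overlapped over most of their range. Its log2 fold change of 0.08 ± 0.098 (SE) had a 95% confidence interval from -0.13 to 0.29 (edgeR adjusted p = 0.717). Folr2, the folate receptor beta, was at 10.9, 15.3 and 11.3 CPM in WT replicates 1, 3 and 4, and at 15.2, 14.6, 11.7 and 15.0 CPM in A178D replicates 1 to 4. WT replicate 3 was the highest heart of all and the genotypes overlapped, with a log2 fold change of 0.18 ± 0.14 (SE) and an edgeR adjusted p of 0.552. When single libraries were left out, the log2 fold change of Mrc1 lay between 0.01 (without A178D replicate 2) and 0.15 (without WT replicate 3), and was 0.02 without WT replicate 1. That of Folr2 lay between 0.09 (without WT replicate 1) and 0.35 (without WT replicate 3), and was 0.11 without WT replicate 4. Neither was called in any of these fits.

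Ly6c2 encodes Ly-6C2, part of the Ly6C antigen by which inflammatory monocytes are recognised. It had 2, 14 and 11 counts in WT replicates 1, 3 and 4, and 12, 21, 6 and 4 counts in A178D replicates 1 to 4. The genotypes overlapped, with the lowest heart in WT and the highest in A178D, and the gene was not called (log2 fold change 0.41 ± 0.67 (SE), 95% confidence interval from -1.02 to 1.84, edgeR adjusted p = 0.809). Without WT replicate 1 the estimate was -0.083, and without WT replicate 3 it was 0.76. Plac8, a gene expressed in monocytes and other blood leukocytes, had 30, 28 and 14 counts in WT replicates 1, 3 and 4, and 24, 68, 26 and 18 counts in A178D replicates 1 to 4. A178D replicate 2 stood high at 1.29 CPM, whereas the other A178D hearts (0.556 to 0.609 CPM) were next to WT replicate 1 (0.571 CPM). The log2 fold change was 0.69 ± 0.42 (SE), at an edgeR adjusted p of 0.441, and 0.29 (edgeR adjusted p = 0.774) without A178D replicate 2. It was 0.74 without WT replicate 3 (edgeR adjusted p = 0.558).

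The Ly6c2 counts are uncertain for a further reason, its near copy Ly6c1, which is expressed in endothelial cells. The transcripts share 162 of the 747 windows of 76 bases along Ly6c2, or 21.7%, and Ly6c1 was counted at 102 to 172 CPM, against 0.0381 to 0.398 CPM for Ly6c2. A few Ly6c1 reads given to Ly6c2 would therefore weigh on its level, and how reads that match both genes were counted is not given in the sources used here. The first 76 coding bases are printed from GENCODE M21 on GRCm38, 5′ to 3′ in the sense of the minus strand (Ly6c2 at chr15:75108158-75111970, Ly6c1 at chr15:75044018-75048830), with the 6 differing positions in capitals.
Ly6c2: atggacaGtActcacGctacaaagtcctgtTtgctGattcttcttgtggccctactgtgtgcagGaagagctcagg
Ly6c1: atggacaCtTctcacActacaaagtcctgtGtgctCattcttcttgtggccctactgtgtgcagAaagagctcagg
Of the 393 coding positions, 384 were equal (97.7%). Ly6c1 itself had a log2 fold change of -0.31 ± 0.14 (SE), at an edgeR adjusted p of 0.289. It was -0.50 without WT replicate 1 (edgeR adjusted p = 0.0124, a call) and -0.16 without WT replicate 4 (edgeR adjusted p = 0.678).

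To set the groups of markers against each other within each heart, their counts were expressed as shares of the summed counts of the 10 genes. The 4 resident genes made up 29.7%, 32.0% and 30.1% in WT replicates 1, 3 and 4, and 24.9%, 26.8%, 25.2% and 23.4% in A178D replicates 1 to 4. WT hearts averaged 30.6% ± 1.28 (SD, n = 3), A178D hearts averaged 25.1% ± 1.40 (SD, n = 4), and the hearts did not overlap. Lyz2 alone held 41.8% ± 1.80 (SD, n = 3) of the counts of WT hearts, compared with 48.2% ± 2.16 (SD, n = 4) for A178D hearts, so a rise of this gene lowers the share of all others. With Lyz2 left out, the resident genes held 50.5%, 53.7% and 53.5% in the WT hearts and 49.0%, 49.2%, 48.2% and 47.4% in the A178D hearts, in the same order of replicates. The genotypes still did not overlap, but WT replicate 1 came close to A178D replicate 2. These shares are a description of the 10 genes and were not tested.

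**Figure D3:**
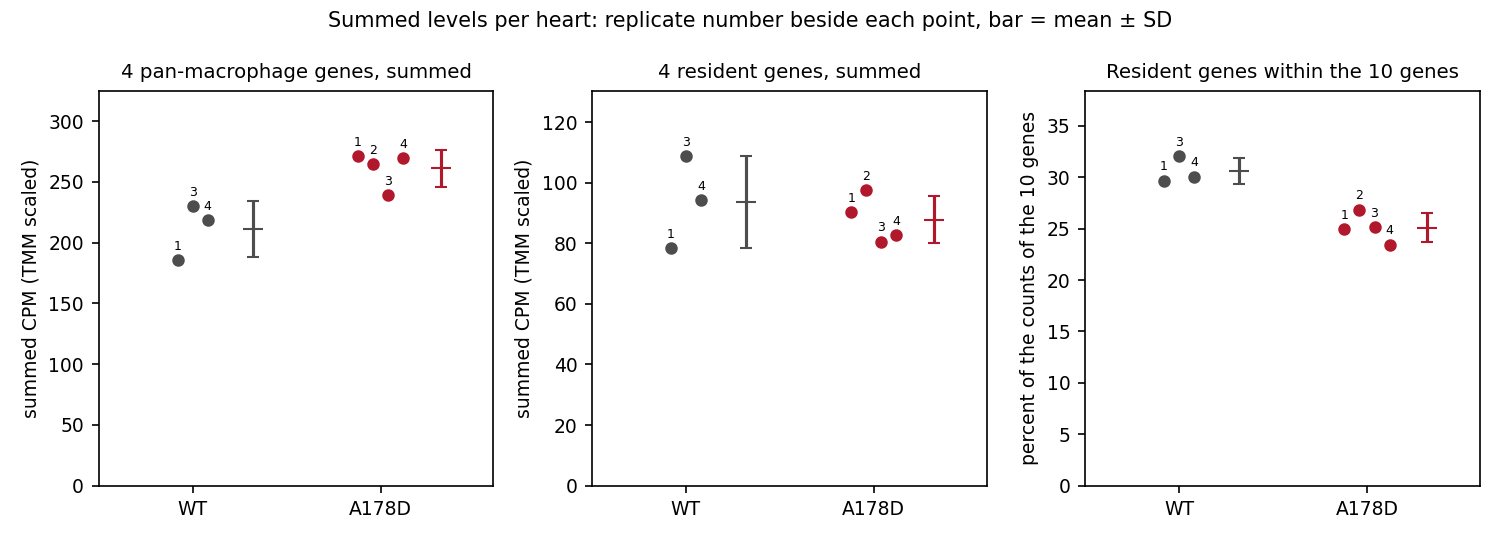
Summed level of the 4 general macrophage genes (left) and of the 4 resident genes (middle), in TMM-scaled counts-per-million, and the share of the counts of the 10 genes held by the resident genes (right), for each WT (grey, n = 3) and A178D heart (red, n = 4). Points carry replicate numbers and bars give mean and SD. The resident sums overlap between genotypes, while the resident shares lie between 29.7% and 32.0% in WT and between 23.4% and 26.8% in A178D.

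In absolute terms, the general genes summed to 186, 230 and 219 CPM in WT replicates 1, 3 and 4, and to 271, 264, 239 and 270 CPM in A178D replicates 1 to 4. Lyz2 supplied most of this sum. The resident genes summed to 78.4, 109 and 94.1 CPM in the WT hearts and to 90.2, 97.6, 80.6 and 82.7 CPM in the A178D hearts, in the same order. The resident sums overlapped, and WT replicate 1 was the lowest heart for both sums.

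Ratios to Csf1r, which relate a marker to the general macrophage signal of the same heart, were compared by two-sided exact permutation tests over the 35 arrangements of the hearts, whose smallest possible p is 0.0286. The log2 ratio of Lyz2 to Csf1r was 0.98, 1.00 and 1.25 in WT replicates 1, 3 and 4, and 1.43, 1.255, 1.35 and 1.52 in A178D replicates 1 to 4. The genotypes did not overlap, though WT replicate 4 and A178D replicate 2 nearly met, and the means differed by 0.31 (exact p = 0.0571, 0.0857 after Benjamini-Hochberg adjustment over the 3 ratios). The log2 ratio of Cd163 to Csf1r was -1.72, -1.33 and -1.29 in WT and -1.92, -1.69, -1.87 and -1.89 in A178D. WT replicate 1 overlapped the A178D hearts, and the means differed by -0.39 (exact p = 0.0571, adjusted 0.0857). For Ly6c2 to Csf1r the difference was 0.48 (exact p = 0.657, adjusted 0.657), and it turned to -0.30 without WT replicate 1. Without WT replicate 3 the differences were 0.27 for Lyz2, -0.34 for Cd163 and 0.78 for Ly6c2.

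Further genes of macrophages were examined from lists of known markers. Of 14 genes expressed by macrophages in general, 0 were called in either direction by edgeR, 12 had fitted values above 0 and 2 below, and the median log2 fold change was 0.29 (0.00 over all genes tested). When single libraries were left out, the median of the 14 lay between 0.20 (without WT replicate 1) and 0.38 (without WT replicate 3). At an unadjusted p under 0.05, 7 of the 14 were higher (7.93% of all tested genes) and 0 were lower (8.81%). The 14 genes mark the same kind of cell in the same 7 hearts, so these are not independent results. Every A178D heart was above every WT heart for 4 of the 14 (7.61% of all tested genes), and below for 1 (8.52%). These shares of all tested genes are the background for the lists that follow as well. C1qa, a chain of the complement component C1q, was the most abundant of the 14 per length. Its log2 fold change was 0.29 ± 0.12 (SE), which was 0.16 without WT replicate 1 and 0.47 without WT replicate 3. C1qb, another chain of C1q, was at 9.66, 15.7 and 13.6 CPM in WT replicates 1, 3 and 4, and at 18.7, 16.8, 18.4 and 19.8 CPM in A178D replicates 1 to 4. It was higher in every A178D heart, with a log2 fold change of 0.50 ± 0.14 (SE) and an edgeR adjusted p of 0.0787. Its log2 fold change was 0.33 without WT replicate 1 (edgeR adjusted p = 0.148), and edgeR called it with no filter (adjusted p = 0.0462) and with the replicate block (0.0485). Ctss, the lysosomal protease cathepsin S, was also higher in every A178D heart (log2 fold change 0.36 ± 0.11 (SE), edgeR adjusted p = 0.102), as was Aif1, the actin-binding protein IBA1 (0.59 ± 0.21 (SE), edgeR adjusted p = 0.182). In the other direction, Lgmn, the lysosomal protease legumain, named after its values were seen, was at 99.5, 110.5 and 109.5 CPM in WT replicates 1, 3 and 4, and at 91.7, 99.0, 97.2 and 98.6 CPM in A178D replicates 1 to 4. It was the only gene of the 14 that was lower in every A178D heart (log2 fold change -0.14 ± 0.068 (SE), edgeR adjusted p = 0.323). With length and GC offsets, log2 fold changes were smaller for C1qa (0.19), C1qb (0.41), Ctss (0.27) and Aif1 (0.47). C1qb and Ctss passed the threshold in DESeq2, with adjusted p of 0.0156 and 0.0443, and limma-voom called 0 of the 14. In the other lists of macrophage and monocyte genes below, limma-voom called 0 genes, and DESeq2 called 0 of those to which it gave an adjusted p, which it did not for 3 of the 8 tested genes of the monocyte list, among them Ifitm6.

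Of 9 genes of the CSF1 axis and of transcription factors that direct macrophage development, 0 were called by edgeR, 2 were higher and 0 lower at an unadjusted p under 0.05, and the median log2 fold change was 0.26. Fitted values were above 0 for 5 of the 9 and below 0 for 4, and ranged from -0.50 to 0.53. The median was 0.07 without A178D replicate 4 and 0.17 without WT replicate 1. Csf1, the ligand, lay between 70.2 and 81.7 CPM with a log2 fold change of -0.05 ± 0.071 (SE). This was -0.005 without WT replicate 3 and -0.03 without A178D replicate 4. Irf8, a transcription factor of the mononuclear lineage, was higher in every A178D heart (log2 fold change 0.37 ± 0.15 (SE), edgeR adjusted p = 0.229). Runx1, a further transcription factor, did not pass either (0.53 ± 0.25 (SE), edgeR adjusted p = 0.306), and its log2 fold change was 0.27 without WT replicate 4.

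Of 10 further resident genes, 9 were tested. EdgeR called 0 of them, 0 had an unadjusted p under 0.05 in either direction, and the median log2 fold change was 0.05, or 0.23 without WT replicate 3 and -0.07 without WT replicate 1. Cbr2, a carbonyl reductase, was the most abundant per length, at 17.6 to 27.1 CPM, and Cd209g was under the filter. Siglec1, the sialic acid receptor CD169, had the smallest p of this list, with a log2 fold change of 0.28 ± 0.15 (SE). Genes for the uptake of dying cells (6 of 7 tested, median log2 fold change -0.01, or -0.07 without A178D replicate 4 and 0.04 without WT replicate 3) held 0 calls by edgeR as well, and 0 at an unadjusted p under 0.05. Gas6, a bridging ligand for apoptotic cells, was the most abundant of these at 169 to 210 CPM, and the scavenger receptor Msr1 was higher in every A178D heart (log2 fold change 0.34 ± 0.17 (SE), edgeR adjusted p = 0.332).

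Further monocyte genes were examined as well. Of 11 genes, 8 were tested and edgeR called 0, with 2 higher and 0 lower at an unadjusted p under 0.05 and a median log2 fold change of 0.37, or 0.60 without WT replicate 3. Their sum was 6.11, 9.45 and 5.69 CPM in WT replicates 1, 3 and 4, and 9.62, 12.5, 7.50 and 7.01 CPM in A178D replicates 1 to 4, and the genotypes overlapped. Itgal, the integrin chain of LFA-1, was the most abundant per length at 2.07 to 5.14 CPM. Ifitm6, an interferon-induced transmembrane protein, had a large estimate from few counts (log2 fold change 2.23 ± 0.62 (SE), edgeR adjusted p = 0.0831). Its counts were 6, 2 and 2 in WT replicates 1, 3 and 4, and 17, 18, 10 and 10 in A178D replicates 1 to 4. It passed the filter only through A178D hearts. This estimate, its place among the 2 higher genes and its part in the median of the list are therefore no evidence of a difference. Fgr, a kinase of myeloid cells, had 0.89 ± 0.39 (SE) at an edgeR adjusted p of 0.269.

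The 7 genes of MHC class II presentation all had fitted values above 0, with 0 called by edgeR, 1 higher at an unadjusted p under 0.05 and a median log2 fold change of 0.27, or 0.13 without A178D replicate 2. Cd74, the invariant chain, was the most abundant per length, with a log2 fold change of 0.15 ± 0.14 (SE). Without A178D replicate 2 it was 0.02, without WT replicate 1 it was 0.05, without WT replicate 3 it was 0.30 and without A178D replicate 1 it was 0.26. H2-DMb1, which helps to load peptides, was higher in every A178D heart (0.48 ± 0.16 (SE), edgeR adjusted p = 0.156), and H2-Eb1 had 0.27 ± 0.14 (SE), or 0.13 without A178D replicate 2. The sum of the 7 genes was highest in A178D replicate 2 (483 CPM) and lay between 289 and 392 CPM in the other hearts, without separation of the genotypes. Of 11 genes of macrophage activation, 8 were tested and edgeR called 0, with 1 higher at an unadjusted p under 0.05 and a median log2 fold change of 0.08, which lay between 0.00 (without WT replicate 4) and 0.30 (without WT replicate 1) when single libraries were left out. Of the 8 tested, 6 had fitted values above 0 and 2 below, namely Il1b (-0.26) and Nos2 (-0.09). Retnla, the most abundant per length, had a log2 fold change of 0.08 ± 0.21 (SE). Lgals3, encoding galectin-3, was higher in every A178D heart (0.48 ± 0.16 (SE), edgeR adjusted p = 0.156), as was Spp1, encoding osteopontin (0.89 ± 0.41 (SE), edgeR adjusted p = 0.299), whereas Il6 and Il10 were among those under the filter.

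Other leukocytes share several of the general markers. The 5 pan-leukocyte genes had 0 calls by edgeR, DESeq2 or limma-voom and 3 higher at an unadjusted p under 0.05. All 5 had fitted values above 0, with a median log2 fold change of 0.32, and they summed to 46.2, 53.3 and 46.4 CPM in WT replicates 1, 3 and 4, and to 57.8, 65.1, 53.3 and 56.5 CPM in A178D replicates 1 to 4. Laptm5, a lysosomal protein of leukocytes and the most abundant of them, was higher in every A178D heart (0.22 ± 0.088 (SE), edgeR adjusted p = 0.217), as was Cd52 (0.51 ± 0.19 (SE), edgeR adjusted p = 0.185). Neutrophils also express Lyz2. Of their 5 markers, Ly6g was at 0 in all 7 hearts, and the 5 together summed to 1.96, 3.65 and 1.77 CPM in WT replicates 1, 3 and 4, and to 4.51, 3.49, 3.35 and 2.07 CPM in A178D replicates 1 to 4. The 3 that were tested all had fitted values above 0, with a median log2 fold change of 0.35 (0.16 without WT replicate 4 and 0.69 without WT replicate 3), and the part of neutrophils in the Lyz2 values was not tested. S100a9, the most abundant of them per length, lay between 0.114 and 1.49 CPM. T-cell markers (Cd4 the most abundant) summed to at most 3.71 CPM, B-cell markers (Cd79b) to 4.36, natural killer markers (Gzma) to 1.55, mast cell markers (Mcpt4) to 5.16 and dendritic cell markers (Clec9a) to 18.9 CPM in any heart. EdgeR called 0 of the 24 tested genes of these lists and of the neutrophil list, in which Cd3d was the only gene at an unadjusted p under 0.05. DESeq2 gave no adjusted p to 9 of the 24, among them Cd3d, and called 0 of the others. Cd3d, a chain of the T-cell receptor complex, was at 0, 0 and 0.0984 CPM in WT replicates 1, 3 and 4. In A178D hearts it lay between 0.198 and 0.494 CPM (edgeR adjusted p = 0.101), and it was called by limma-voom (adjusted p = 0.0348). However, it had at most 4 counts in WT hearts and 8 to 16 in A178D hearts. It thus passed the filter only through the genotype where it was high, and its call is no evidence of a difference. Of the 5 tested T-cell genes, 3 had fitted values above 0, Cd3d together with Cd3e (log2 fold change 0.34) and Cd8a (0.59). The 2 below 0 were Cd3g (-0.23) and Cd4 (-0.25). The median of the 5 genes was 0.34, and it turned to -0.18 without A178D replicate 4 and to -0.15 without WT replicate 3. Because Cd3d enters both, neither this count nor this median is evidence of a difference.

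Among the other cells of the LV, genes of smooth muscle differed by genotype. Of 5 genes of mural cells (smooth muscle and pericytes), 0 were called higher (1.04% of all tested genes) and 2 were called lower (1.31%), both of smooth muscle, Acta2, the smooth muscle actin, with a log2 fold change of -0.59 ± 0.091 (SE) and an edgeR adjusted p of 0.00587, and Myh11, the smooth muscle myosin, with -0.67 ± 0.12 (SE) and 0.0146. The Myh11 call was lost without WT replicate 3 (edgeR adjusted p = 0.0501) or WT replicate 4 (0.0548). Rgs5, a pericyte gene, had -0.33 ± 0.087 (SE) and an edgeR adjusted p of 0.0653, and was called by DESeq2 (adjusted p = 0.0127). EdgeR called it with no filter (adjusted p = 0.0400), with length and GC offsets (0.0182) and without A178D replicate 4 (0.0495). The other 2 mural genes were not called by edgeR, DESeq2 or limma-voom, and overlapped between genotypes. The mural genes, with Acta2 the most abundant per length and none at 0, summed to 1105, 1149 and 1150 CPM in WT replicates 1, 3 and 4, and to 904, 966, 1029 and 801 CPM in A178D replicates 1 to 4, without overlap. Abcc9, a longer gene, was the largest part of each sum, at 572, 598 and 628 CPM in the WT hearts and 555, 571, 616 and 426 CPM in the A178D hearts. Whether its RNA came from mural cells alone was not tested. The part of these cells in the values of the macrophage genes was not tested.

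Endothelial genes (Cdh5 the most abundant per length, median log2 fold change 0.08), fibroblast genes (Dcn, 0.04), ventricular cardiomyocyte genes (Actc1, -0.01) and erythrocyte genes (Hba-a2, 0.15) had 0 calls by edgeR and limma-voom. When single libraries were left out, these medians lay between -0.04 (without WT replicate 4) and 0.10 (without WT replicate 1) for endothelial genes, between -0.02 (without WT replicate 1) and 0.14 (without WT replicate 3) for fibroblast genes, between -0.07 (without A178D replicate 4) and 0.02 (without A178D replicate 2) for ventricular genes, and between 0.02 (without A178D replicate 4) and 0.23 (without A178D replicate 3) for erythrocyte genes. At an unadjusted p under 0.05, 2 fibroblast genes were higher, and 1 ventricular gene was higher and 1 lower. Col1a1, the fibrillar collagen chain, was higher in every A178D heart (log2 fold change 0.45 ± 0.12 (SE), edgeR adjusted p = 0.0813) and was the only gene of these lists called by DESeq2 (adjusted p = 0.0120). In edgeR its log2 fold change was 0.58 without WT replicate 1 (adjusted p = 0.0196, a call), 0.27 without WT replicate 4 (0.180), 0.52 with length and GC offsets (0.0190, a call) and 0.44 with no filter (0.0416, a call). The list of ventricular cardiomyocyte genes, not all of them particular to ventricles, summed to 85110 to 92440 CPM. For the tissue label, atrial markers summed to 4.21 CPM or less, with Bmp10 at 0 in all 7 hearts. Myl4, an atrial light chain, was the only tested atrial marker (log2 fold change 0.65 ± 0.23 (SE), edgeR adjusted p = 0.171).

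The genes whose pattern over the 7 hearts was most like that of the macrophage genes were sought among the 12204 genes that averaged 50 counts or more, by the root-mean-square difference of log2 deviations from each gene's mean. Closest to the mean profile of the 4 general genes were Trf (0.038), Sulf2 (0.060), Pigyl (0.061), Fbxo44 (0.061) and Klhl40 (0.062). Closest to that of the 4 resident genes were Scara5 (0.049), Rrad (0.057), Sfxn3 (0.057), Tbc1d17 (0.070) and Pycard (0.071). With 7 hearts, such matches describe these samples only.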

How the data were processed

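Powdered LV tissue had been extracted with Trizol, and stranded poly(A) libraries were sequenced as paired reads of 76 bases. The submitters' processing notes name bcl2fastq 2.18.0.12, HISAT2 2.1.0, SAMtools 1.6, DESeq2 1.26.0 and the build GRCm38. The counting program, its strand setting and its annotation are not given in the sources used here, so overlapping and antisense genes cannot be separated. The deposited values are raw counts per gene, and a further deposited table of normalised counts was not used. Of counts from 1 to 20, at most 20.3% were odd, so that most fragments appear to have been counted once per read end.

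Of 21257 entries, 442 in 219 sets carried the same counts throughout. Of each set 1 entry was kept, which removed 223, and 107 repeated entries of an identifier with equal counts under 30 in total were removed, leaving 20927 genes, named with GENCODE M21. A gene entered the test when 3 or more libraries had a minimum of 10 counts (13894 genes), and was fitted with edgeR 4.0.16 (TMM, quasi-likelihood, R 4.3.3), with A178D compared against WT without a block. The fits (edgeR alone, with the replicate block and with offsets, DESeq2 and limma-voom) were tested on simulated data, and the other steps were not. Alternatives used DESeq2 1.42.0, limma 3.58.1, length and GC offsets (mgcv 1.9.3), other filters, a replicate block and leaving out each library. Ratios used log2 of counts plus 0.5 and exact permutation tests (scipy 1.17.1). CPM are TMM scaled, and levels per kilobase use the union of exons. Limits for 0 counts use 3 counts and cover counting error only. Named genes were the 10 genes, their near copies, those most like them in pattern and, from each list, called genes, the most abundant per length, genes under the filter and up to 3 with the smallest p. Lgmn, Mmrn1 and Ttn were named after their values were seen. The 10 genes and the lists were chosen with earlier results of these data known. Results of some listed genes are not reported here.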

Additional observations from a re-analysis of the deposited data

Results flagged for a closer look

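In several genes a single A178D heart lay far from the other 3, by a gap of more than 0.829 of the range of the group. Among groups of 4, chance gives such a gap in about 1 of 20. Plac8 was 1.29 CPM in A178D replicate 2, with 0.609 CPM as the next value. Lgals3 was 5.62 CPM in the same heart, with 4.63 CPM as the next. Aif1 was 4.82 CPM in A178D replicate 4, with 3.42 CPM as the next. Cd3d was 0.494 CPM in A178D replicate 4 (next 0.234 CPM), and Cd4 was 2.1 CPM there (next 1.43 CPM). Dcn was 646 CPM in A178D replicate 1, with 562 CPM as the next value. These are 6 of 56 groups examined.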

How the results depend on the processing

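The rise of Lyz2 and its call held under 9 alternatives, DESeq2 (adjusted p = 0.00154), DESeq2 size factors, limma-voom, no filter, a stricter filter, the replicate block, halved counts, the table as deposited and length and GC offsets (log2 fold change 0.31), and 1 of 10 genes was called under each. At a threshold of 0.01, 0 of 10 were called, and leaving out single libraries gave 0 to 2. Over the 10 genes and all alternatives, 158 of 167 fold changes kept their direction and their side of the threshold, 6 of Lyz2 lost the call, 1 each of Cd163 and Lyve1 gained it and 1 reversed. That was Ly6c2, at -0.083 to 0.757 when single libraries were left out, and its ratio to Csf1r moved likewise from -0.30 to 0.95. Ly6c2 was not tested with a stricter filter or halved counts, where it had too few counts, and had no adjusted p in DESeq2. For 30 other named genes, 477 of 500 fold changes kept direction and side, 8 lost a call, 14 gained one and 1 reversed (Mmrn1, at -0.48 to 0.62 when single libraries were left out). With the longest coding transcript as length, added after the data were seen, 5 of 10 levels moved by more than their SD over hearts.

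Across all genes, DESeq2 called 290 higher and 375 lower, length and GC offsets 218 and 283, and the threshold of 0.01 left 24 and 40. Leaving out single libraries gave 22 (without WT replicate 3) to 215 (without WT replicate 1) higher and 31 to 238 lower. The cause was not tested.

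With the replicate number as a block, 124 genes were higher and 147 lower, and Lyz2 had a log2 fold change of 0.415 (edgeR adjusted p = 0.0485). Deviations of hearts with the same number correlated at 0.003, -0.040 and -0.042, and not every heart correlated best with its own number, so the hearts were taken to share only a number. Ly6c2 and Plac8 had at most 21 and 68 counts in a heart.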
